A study of Rattus norvegicus with 23 samples.

Results

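The interferon-inducible CXC chemokines Cxcl9, Cxcl10, Cxcl11 and Cxcl16 were followed in the lungs of elderly rats that had inhaled a titanium dioxide (TiO2) nano-aerosol. The members were the 4 genes with these symbols in the array annotation, a rule that uses no measured value, although the set was drawn up with earlier results of these data known. Each had 1 probe on the array, and all 4 were among the 23032 genes tested. The rats were male F344 animals, an inbred laboratory strain, with an age given as 19 months in every group. They breathed either filtered air (controls) or TiO2 P25 aerosol at 10 mg/m3 through the nose only, 6 h per day and 5 days per week for 4 weeks. Lungs were taken on the last day of exposure (D0) or 28 days later (D28), and total RNA of the accessory lobe was hybridised to single-colour Agilent rat arrays, 1 rat per array. On D0 there were 6 control and 5 exposed rats, on D28 there were 6 of each, and the remaining exposed D0 rat of the study was not analysed here. Exposed D28 arrays carry day 0 in 1 of their labels, but day 28 in the title and the description, and were taken as D28. Rats are numbered within their group as in the titles. The tissue carried its defining markers, with a mean log2 level over 10 lung epithelium genes of 14.37 to 14.65 in every rat.

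Cxcl9, Cxcl10 and Cxcl11 are secreted chemokines that bind the receptor Cxcr3 on activated T cells and natural killer (NK) cells. Cxcl9 is known to depend mainly on interferon-gamma, while Cxcl10 and Cxcl11 also respond to type I interferons and, for Cxcl10 above all, to NF-kB. Cxcl16 is made as a membrane-anchored protein with a chemokine domain, is shed by the protease Adam10, binds Cxcr6 and also acts as a scavenger receptor on macrophages. In the lung, macrophages, endothelial cells and epithelial cells can make these chemokines. Bulk RNA of a lobe does not tell more cells of a type from more RNA per cell.

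The first 3 chemokine genes lie side by side. In the RefSeq annotation of the GRCr8 assembly the order was Cxcl11, Cxcl10 and Cxcl9, with no annotated gene between them and with Cwf19l1-ps1 and Sdad1 on the outer sides. Their probes spanned 36.7 kb of chromosome 14 in the older rn4 build used by the array files, from the Cxcl11 probe at chr14:17252192-17252251 through the Cxcl10 probe at chr14:17267994-17268053 to the Cxcl9 probe at chr14:17288831-17288890. The Cxcl16 probe lay apart, at chr10:57296159-57296218 of rn4.

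The 250 bases before the start of each gene are shown because the 4 chemokines differed in how they varied between rats, and because interferon signals and NF-kB act through promoters. The sequences are from RefSeq on GRCr8, at chr14:16006916-16007165 (plus strand) for Cxcl9, chr14:15988816-15989065 (plus strand) for Cxcl10, chr14:15973478-15973727 (plus strand) for Cxcl11 and chr10:55669951-55670200 (minus strand) for Cxcl16. Capitals mark matches, on either strand, to 4 motifs: the interferon-stimulated response element (ISRE; GAAA, any 2 bases, GAAA), the gamma-activated site (GAS; TTC, any 3 bases, GAA), the NF-kB site (GGGA, any 2 bases, TTCC) and the AP-1 site (TGA, any base, TCA).
Cxcl9: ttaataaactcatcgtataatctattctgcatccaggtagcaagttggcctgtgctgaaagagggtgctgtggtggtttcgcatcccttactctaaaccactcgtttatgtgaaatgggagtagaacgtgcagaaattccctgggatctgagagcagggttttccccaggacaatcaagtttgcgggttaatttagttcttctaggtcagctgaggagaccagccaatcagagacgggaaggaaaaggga
Cxcl10: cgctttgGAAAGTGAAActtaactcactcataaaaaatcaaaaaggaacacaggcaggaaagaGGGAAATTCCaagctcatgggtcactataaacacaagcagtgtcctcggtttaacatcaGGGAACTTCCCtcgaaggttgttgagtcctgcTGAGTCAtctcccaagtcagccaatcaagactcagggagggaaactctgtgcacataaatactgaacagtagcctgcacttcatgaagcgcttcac
Cxcl11: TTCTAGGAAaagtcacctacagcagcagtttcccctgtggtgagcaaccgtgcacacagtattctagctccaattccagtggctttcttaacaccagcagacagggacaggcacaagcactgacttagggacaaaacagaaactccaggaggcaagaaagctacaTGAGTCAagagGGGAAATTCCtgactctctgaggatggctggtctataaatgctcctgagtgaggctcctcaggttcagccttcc
Cxcl16: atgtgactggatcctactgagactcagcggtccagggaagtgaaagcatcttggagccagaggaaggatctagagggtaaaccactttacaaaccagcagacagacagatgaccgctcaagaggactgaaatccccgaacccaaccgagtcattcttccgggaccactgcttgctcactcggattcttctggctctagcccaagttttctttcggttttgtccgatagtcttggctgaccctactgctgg
The Cxcl10 stretch held an ISRE match 243 to 234 bases before the start, NF-kB matches 187 to 178 and 128 to 118 bases before it and an AP-1 match at 96 to 90. The second NF-kB match was read on both strands, with the readings overlapping by all but 1 base at each end. The Cxcl11 stretch held a GAS match at its far end, 250 to 242 bases before the start, an AP-1 match at 85 to 79 and an NF-kB match at 74 to 65. The Cxcl9 and Cxcl16 stretches held none of these letters within this window. Among 27457 rat promoters of the same length, 3.29% held the ISRE letters, 7.52% the GAS letters, 1.07% the NF-kB letters and 6.36% the AP-1 letters. A match describes the sequence and was not tested as a binding site.

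On D0, Cxcl10, Cxcl11 and Cxcl16 had higher mean levels in exposed than in control lungs, by 2.02-fold, 2.66-fold and 1.22-fold, and Cxcl9 differed by 1.16-fold, but none of the 4 passed the test. On D28 the fold changes (FC) were 1.90 for Cxcl10, 1.77 for Cxcl11, 1.03 for Cxcl9 and 1.03 for Cxcl16, and again none passed. A gene was called when its Benjamini-Hochberg adjusted p in limma was below 0.05 over all genes tested and its FC was at least 1.5. By this rule 0 of 4 members were called on D0, where 1.78% of all genes were called, and 0 of 4 on D28, where 0.755% were called. An unadjusted limma p below 0.05 was reached by Cxcl10, Cxcl11 and Cxcl16 on D0, where 5.61% of all genes reached it with a higher level in exposed rats, and by Cxcl10 alone on D28, where 4.82% did. All 4 log2 FC were above 0 on each day, where 49.9% of all genes were on D0 and 48.8% on D28. The D28 values of Cxcl9 and Cxcl16 were only 0.04 and 0.05, and the D0 sign of Cxcl9 rested on 1 rat. The median of the members was 0.65 on D0 and 0.44 on D28, against medians over all genes of -0.00075 and -0.0056. All levels below are log2 quantile-normalized signals, and the levels of different probes are not compared.

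**Figure D1:**
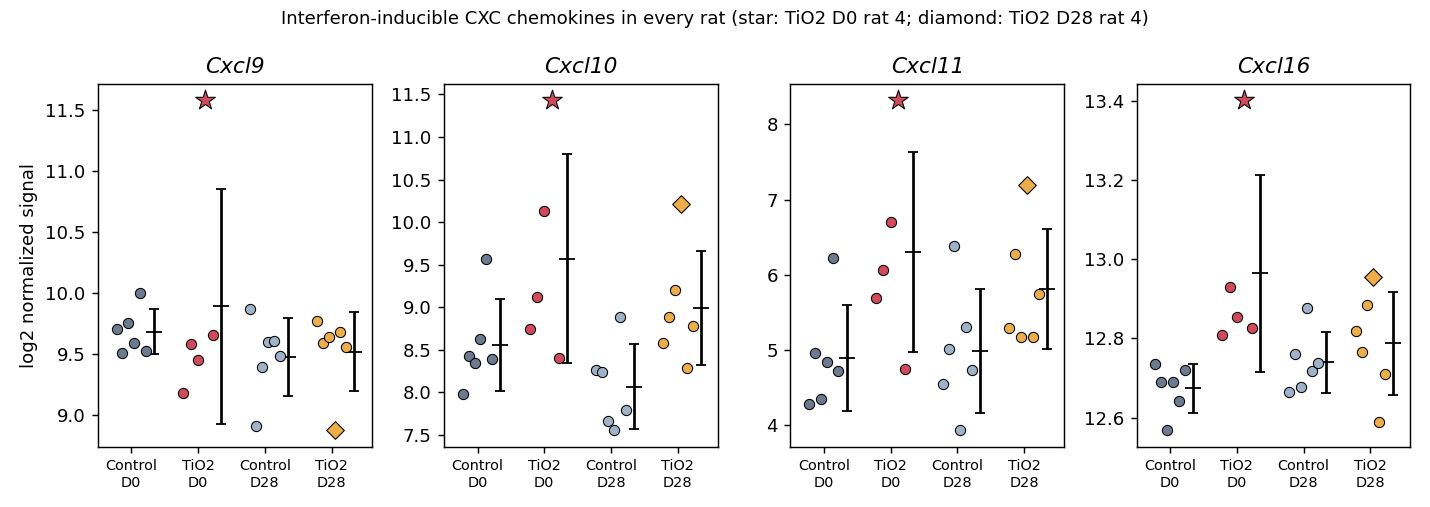
Log2 normalized signal of Cxcl9, Cxcl10, Cxcl11 and Cxcl16 in each rat, by group (6, 5, 6 and 6 rats), with the mean and SD as bars beside the points. Each panel has its own axis, which does not start at 0. The star is exposed D0 rat 4, the highest of 23 rats for all 4 chemokines, and the diamond is exposed D28 rat 4, the highest D28 rat for Cxcl10, Cxcl11 and Cxcl16 and the lowest for Cxcl9.

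Cxcl10, the member most widely induced by interferons, had levels of 8.75, 9.12, 10.13, 11.43 and 8.40 in the 5 exposed D0 rats. The 6 D0 controls ranged from 7.98 to 9.56 with a median of 8.41. Exposed rats 3 and 4 lay above all controls, 4 of 5 exposed rats lay above the control median, and the groups overlapped through control rat 5, the highest control. The means were 9.57 ± 1.23 (SD, n = 5) and 8.56 ± 0.54 (SD, n = 6), a log2 FC of 1.01 (limma adjusted p = 0.323, standard error 0.44, 95% confidence interval 0.097 to 1.93). On D28 the exposed rats ranged from 8.28 to 10.21 with a median of 8.84, and the controls from 7.55 to 8.88 with a median of 8.02. All 6 exposed rats lay above the control median and 3 of 6 lay above every control. The log2 FC was 0.92 (limma adjusted p = 0.404, standard error 0.42, 95% confidence interval 0.052 to 1.80).

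Cxcl11, the ligand with the highest known affinity for Cxcr3, had processed signals of 17.0 to 224 before normalization, and its signal was well above background on 22 of 23 arrays, with control D0 rat 1 as the exception. Its levels in exposed D0 rats were 5.70, 6.07, 6.70, 8.32 and 4.75, and D0 controls ranged from 4.28 to 6.22 with a median of 4.78. The exposed rats had the same order as for Cxcl10, with rats 4 and 3 above all controls and rat 5 within their range, and control rat 5 was again the highest control. The log2 FC was 1.41 (limma adjusted p = 0.215, standard error 0.53, 95% confidence interval 0.30 to 2.52). On D28 the exposed rats ranged from 5.17 to 7.19 with a median of 5.52, and the controls from 3.93 to 6.39 with a median of 4.88. All 6 exposed rats lay above the control median, but only rat 4 lay above control rat 3, the highest control. The log2 FC was 0.82 (limma adjusted p = 0.619, standard error 0.51, 95% confidence interval -0.23 to 1.88). The size for this dim probe depended on the background correction, with a log2 FC on D0 of 0.65 with normexp and 0.85 in the authors' table without background correction, and of 0.32 and 0.42 on D28.

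Cxcl9, the member that depends most on interferon-gamma, had levels of 9.18, 9.58, 9.45, 11.58 and 9.66 in exposed D0 rats. The D0 controls ranged from 9.50 to 10.00 with a median of 9.65. Exposed rat 4 stood alone above the controls, rats 1 and 3 lay below all of them, and rats 2 and 5 lay among them. The log2 FC was 0.21 (limma adjusted p = 0.940, standard error 0.30, 95% confidence interval -0.41 to 0.83). On D28 the exposed rats ranged from 8.87 to 9.77 with a median of 9.62, and the controls from 8.90 to 9.86 with a median of 9.54. The ranges covered nearly the same span, and the log2 FC was 0.04 (limma adjusted p = 0.983, standard error 0.28, 95% confidence interval -0.54 to 0.63).

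Cxcl16, the membrane-anchored member, had levels of 12.81, 12.93, 12.85, 13.40 and 12.83 in exposed D0 rats and of 12.57 to 12.74, with a median of 12.69, in D0 controls. All 5 exposed rats lay above all 6 controls, an order found on D0 for 1.94% of the genes tested. The means were 12.96 ± 0.25 (SD, n = 5) and 12.67 ± 0.061 (SD, n = 6), a log2 FC of 0.29 (limma adjusted p = 0.121, standard error 0.094). The 95% confidence interval of the FC, 1.07 to 1.40, lay below the FC limit of 1.5. On D28 the exposed rats ranged from 12.59 to 12.95 with a median of 12.79, and the controls from 12.67 to 12.88 with a median of 12.73. The groups overlapped, with exposed rat 5 below all controls, and the log2 FC was 0.05 (limma adjusted p = 0.926, standard error 0.090). The difference between the effects of the days was -0.24 (95% confidence interval -0.51 to 0.029, limma adjusted p = 0.9999).

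**Figure D2:**
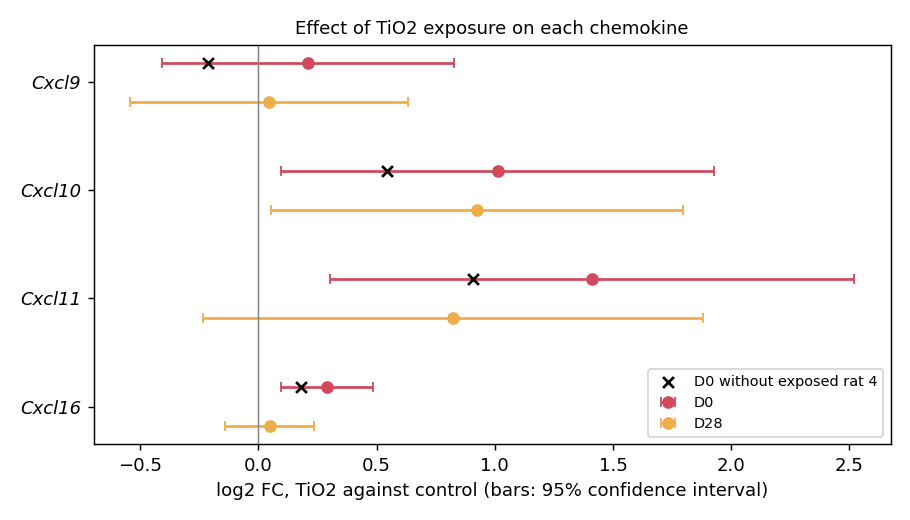
Log2 FC of exposed against control rats for each chemokine on D0 and D28, with 95% confidence intervals from limma; crosses give the D0 value without exposed rat 4. The D0 intervals of Cxcl10, Cxcl11 and Cxcl16 and the D28 interval of Cxcl10 lie above 0 before any adjustment, and the Cxcl9 value on D0 goes from 0.21 to -0.21 without rat 4.

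The effect of exposure was not shown to differ between the days for any member. The differences in log2 FC, D28 minus D0, were -0.17 for Cxcl9, -0.09 for Cxcl10 and -0.59 for Cxcl11, with 95% confidence intervals of -1.02 to 0.69, -1.35 to 1.18 and -2.12 to 0.94, each with a limma adjusted p of 0.9999. Over all genes, 0.0304% were called in this contrast. Between the control groups, D28 minus D0, the differences were -0.21 for Cxcl9, -0.49 for Cxcl10, 0.09 for Cxcl11 and 0.07 for Cxcl16 on the log2 scale, with limma adjusted p from 0.667 to 0.964, where 0.608% of genes were called. Between the exposed groups the same differences were -0.37, -0.58, -0.50 and -0.18 for the same genes, with limma adjusted p from 0.699 to 0.861, where 0.352% of genes were called. Without exposed D0 rat 4 these last differences were 0.052 for Cxcl9, -0.11 for Cxcl10, 0.0070 for Cxcl11 and -0.068 for Cxcl16, and the differences between the effects of the days were 0.26, 0.38, -0.083 and -0.13.

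Exposed and control rats of a day shared slides, and the differences were also taken within a slide, from 1 or 2 arrays of each group. On D0 the Cxcl10 difference in log2 level was 0.32, 2.66, 0.27 and 1.75 on the 4 slides that held both groups, and that of Cxcl11 was 0.74, 3.07, 0.81 and 1.98. Cxcl16 was also higher in exposed rats on each of these slides, by 0.12, 0.71, 0.25 and 0.13, a direction that its lack of overlap on D0 fixed in advance. Cxcl9 was higher in exposed rats on 1 of the 4 slides, by 1.73, where the exposed array was rat 4, and differed by -0.32, -0.06 and -0.07 on the others. On D28, 3 slides held both groups, and the Cxcl10 difference was 1.55, 0.16 and 1.09 and the Cxcl11 difference 0.77, 0.25 and 1.54. The Cxcl9 difference on these slides was 0.07, -0.08 and 0.11. Control D28 rat 4, which had the lowest Cxcl10 and Cxcl11 levels of the 23 rats, was alone on its slide, and without it the D28 log2 FC was 0.82 for Cxcl10 and 0.61 for Cxcl11.

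The members differed widely in how much rats of 1 group varied. The within-group SD of the log2 level was 0.92 for Cxcl11, larger than that of 94.0% of the genes tested, 0.76 for Cxcl10 (88.5%), 0.51 for Cxcl9 (72.7%) and 0.14 for Cxcl16 (9.96%), where the median gene had 0.32. These shares take no account of probe brightness. Processed signals were 17.0 to 224 for Cxcl11 and 4845 to 12772 for Cxcl16, and the part of brightness in the spread was not tested. From the lowest to the highest exposed D0 rat, the level spanned 11.9-fold for Cxcl11, 8.17-fold for Cxcl10, 5.28-fold for Cxcl9 and 1.51-fold for Cxcl16. A single animal, exposed D0 rat 4, set the upper end in each case.

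Exposed D0 rat 4 was the highest of 23 rats for all 4 chemokines, whereas it was the highest for 5.9% of all genes tested. It stood 3.97-fold above the median of the other 22 rats for Cxcl9, 7.61-fold for Cxcl10, 8.88-fold for Cxcl11 and 1.58-fold for Cxcl16. Before normalization its signals of Cxcl9, Cxcl10 and Cxcl11 were also the highest, but that of Cxcl16 was not. That signal was 7862, where exposed D0 rats reached 10591 and D0 controls 9196. The array was the dimmest of D0, with a 75th percentile of the processed signal of 1445. Ifng, which encodes interferon-gamma, was well above background on this array (level 5.41) and on no other. Cxcr3, the receptor of Cxcl9, Cxcl10 and Cxcl11, was highest there too, at 7.78 against 6.45 to 6.84 in the other exposed D0 rats. Of 19 interferon-gamma targets tested, 15 were highest in this rat. They included the guanylate-binding proteins Gbp1, Gbp2, Gbp5 and Gbp6, which act against intracellular pathogens, the peptide transporter subunits Tap1 and Tap2 and the immunoproteasome subunits Psmb8, Psmb9 and Psmb10, which serve antigen presentation, and Ciita, the master regulator of MHC class II genes. Ido1, which degrades tryptophan, was at 9.46 against 1.66 to 5.17 in the other rats. Cd274, Gbp4, Icam1 and Nos2 were the 4 targets that were not highest in this rat. These genes are named as members of the list and were looked at in this rat after its values were seen.

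**Figure D3:**
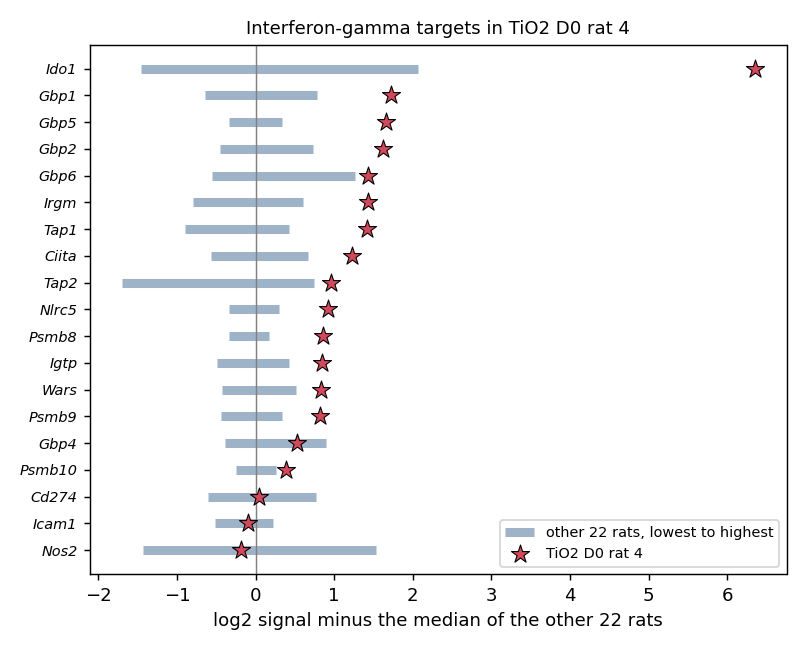
Log2 signal of 19 interferon-gamma targets in exposed D0 rat 4 (stars), each minus the median of the other 22 rats, whose range from lowest to highest is the bar. The star lies beyond the bar for 15 of 19 genes, farthest for Ido1, and within it for Gbp4, Cd274, Icam1 and Nos2.

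The mean over the 19 interferon-gamma targets was 10.34 in exposed D0 rat 4, 9.03 to 9.23 in the other 4 exposed D0 rats and 9.14 to 9.53 in D0 controls. Of 20 type I interferon targets, 9 were highest in this rat. Markers of some cell types were also high in it. Of 12 macrophage markers 9 were highest there, as were Gzmb, Klrk1, Nkg7 and Prf1, genes of cytotoxic cells, among 20 T and NK cell markers. The mean of the T and NK cell markers was 10.02 in this rat against 8.77 to 9.37 in the other exposed D0 rats and 9.15 to 9.80 in D0 controls. Of 7 dendritic cell markers 4 were highest in this rat, and of 9 neutrophil markers 1 was highest and 2 were lowest. No B cell, lung epithelium or endothelium marker was highest, and 2 of 6 endothelium markers were lowest. The part of these cells in the chemokine levels was not tested.

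Without exposed D0 rat 4, the log2 FC on D0 was 0.55 for Cxcl10 (limma adjusted p = 0.756), 0.91 for Cxcl11 (adjusted p = 0.579), 0.18 for Cxcl16 (adjusted p = 0.339) and -0.21 for Cxcl9 (adjusted p = 0.828). The direction of Cxcl9 on D0 thus rested on this rat, while the other members kept a log2 FC above 0. The median log2 FC of the 19 interferon-gamma targets on D0 went from 0.04 to -0.15. No interferon-gamma target was called on D0 with or without this rat.

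A second animal stood out on D28, for 3 of the 4 chemokines and for type I interferon targets. Exposed D28 rat 4, which shares only its number with the D0 animal, was the highest of the 12 D28 rats for Cxcl10 (10.21), Cxcl11 (7.19) and Cxcl16 (12.95) and the lowest for Cxcl9 (8.87). For these 3 genes it was next to exposed D0 rat 4 among all 23 rats. Of 20 type I interferon targets, 9 were highest among D28 rats in this animal, against 9.82% of all genes tested. They included Mx1, an antiviral GTPase, at 12.59 against 11.05 to 11.78 in the other D28 rats, Oas2, which makes the activator of RNase L, at 7.62 against 5.91 to 7.02, and Irf7, the regulator of type I interferon genes, at 12.32 against 10.60 to 11.52. The mean over the type I targets was 9.67, against 9.08 to 9.28 in the other exposed D28 rats and 8.71 to 9.22 in D28 controls. Exposed D0 rat 4 was nearly as high on these targets, with a mean of 9.61, and Dhx58, Ifi27, Isg15 and Usp18, which led the D28 rats in this animal, were highest of all 23 rats in that one. The animals differed in Cxcl9 and in the interferon-gamma targets. They were on different slides, and in each group the lowest Cxcl9 level was on the slide of exposed D28 rat 4. These lowest levels were 9.50 in D0 controls, 9.18 in exposed D0 rats, 8.90 in D28 controls and 8.87 in this animal. The part of the slide in the Cxcl9 level was not tested.

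In the same animal the interferon-gamma targets lay among those of the other D28 rats. Their mean was 9.06, against 9.01 to 9.21 in the other exposed D28 rats and 8.82 to 9.33 in D28 controls. Ido1 was not well above background in it, at a level of 1.66, and 4 of 19 targets, Cd274, Gbp1, Igtp and Psmb10, were highest among D28 rats. None of 20 T and NK cell markers was highest there on D28, and Cd8a, Cd8b and Ncr1 were lowest. Of the 23032 genes tested, 9.82% were highest and 3061 were lowest in this animal among D28 rats. The marker counts are therefore not read as a result about these cells. Cxcr3 was at 6.22, below the other 5 exposed D28 rats. Without this animal the D28 log2 FC was 0.68 for Cxcl10 and 0.55 for Cxcl11. The animals were looked at after their chemokine levels were seen, and the difference between them has no replicate.

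**Figure D4:**
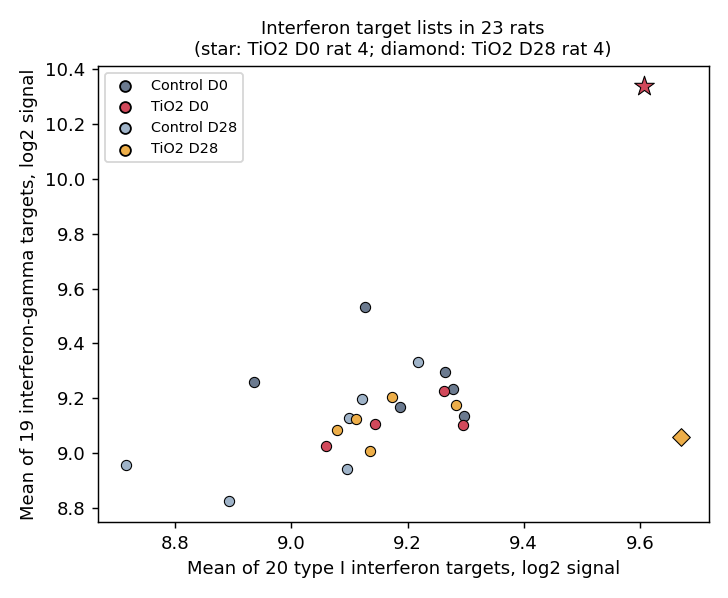
Mean log2 signal of 19 interferon-gamma targets against that of 20 type I interferon targets, 1 point per rat, coloured by group. Exposed D0 rat 4 (star) lies at 10.34 on the interferon-gamma axis, above the other 22 rats, and exposed D28 rat 4 (diamond) lies at 9.06 on it, among the other rats. On the type I axis both lie above the other 21 rats, at 9.61 and 9.67.

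After the mean of each group was taken out, Cxcl10 and Cxcl11 varied together over the 23 rats, with a Pearson r of 0.80 (permutation p = 0.00038) and a Spearman rho of 0.72 (permutation p = 0.00079). Adjusted over the 6 pairs of members these were 0.00228 and 0.00474. The r was 0.69 without exposed D0 rat 4 and 0.64 without the 2 rats farthest from the median of Cxcl10, the 2 exposed rats numbered 4. Within the groups r was 0.97 in D0 controls, 0.98 in exposed D0 rats, 0.81 in exposed D28 rats and 0.11 in D28 controls, where control rat 3 had the highest Cxcl11 and a low Cxcl10 level. The pair of Cxcl9 and Cxcl10 did not pass the test, with an r of 0.45 (adjusted permutation p = 0.244) and a rho of 0.20 (adjusted permutation p = 0.619), and r was -0.22 without exposed D0 rat 4. Between Cxcl10 and Cxcl16 r was 0.64 (adjusted permutation p = 0.0766) and rho 0.39 (adjusted permutation p = 0.316), and r was 0.29 without that rat. The other 3 pairs had r from 0.33 to 0.56, with adjusted permutation p from 0.215 to 0.328, and from -0.37 to 0.07 without that rat. Values of 1 rat come from 1 array and share its RNA and normalization.

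**Figure D5:**
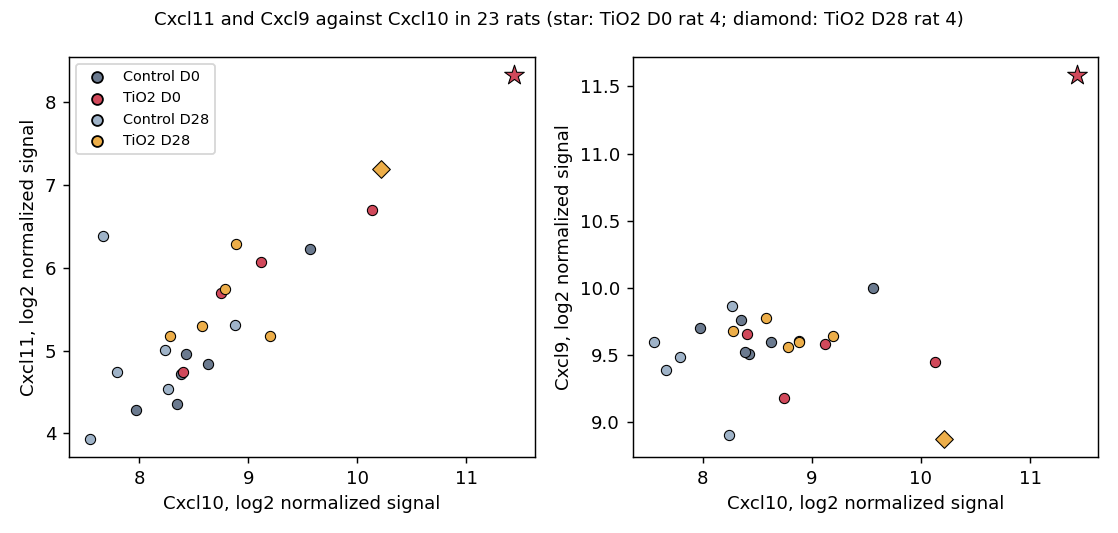
Log2 normalized signal of Cxcl11 (left) and Cxcl9 (right) against that of Cxcl10, 1 point per rat, coloured by group. Rats with more Cxcl10 have more Cxcl11 over most of the range (within-group r of 0.80), while Cxcl9 stays between 8.87 and 10.00 in 22 rats and reaches 11.58 in exposed D0 rat 4 (star); the diamond is exposed D28 rat 4.

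The genes most like each member, by within-group Pearson r over the 23 rats, were listed as a description without a test. For Cxcl10 they were Rnf213 (r = 0.87), Ubd (0.84) and Psme2 (0.81), with Cxcl11 in place 6 of 23031 genes. For Cxcl11 they were Kcnn4 (0.84), Dtx3l (0.83) and Ciita (0.82). For Cxcl16 they were Psme2 (0.84), Tnfaip8l3 (0.84) and Glp2r (0.84), and for Cxcl9 Afg3l1 (0.90), LOC100912759 (0.87) and Fam47a (0.87). Ubd encodes a ubiquitin-like protein and Psme2 a proteasome activator subunit, and Kcnn4 encodes a calcium-activated potassium channel of T cells, macrophages and epithelia. Without exposed D0 rat 4, Rnf213 and Ubd stayed among the first 3 genes for Cxcl10 and Tnfaip8l3 for Cxcl16, while the first 3 for Cxcl9 and for Cxcl11 were other genes. Of these genes Kcnn4 was called, with a log2 FC of 0.71 on D0 (limma adjusted p = 0.0115) and 0.65 on D28 (limma adjusted p = 0.0287).

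The receptors of the chemokines were not called on either day. Cxcr3 had 6.45 to 7.78 in exposed and 6.21 to 7.24 in control D0 rats, a log2 FC of 0.21 (limma adjusted p = 0.929), and a log2 FC of 0.44 on D28 (limma adjusted p = 0.606). Cxcr6, the receptor of Cxcl16, had a log2 FC of 0.27 on D0 (limma adjusted p = 0.788) and 0.11 on D28 (limma adjusted p = 0.930). Ackr3, a scavenging receptor for Cxcl11 and Cxcl12, had levels of 9.98, 9.56, 9.19, 9.05 and 10.02 in exposed D0 rats against 9.84 to 10.28 in controls. Exposed rats 2, 3 and 4, which had the 3 highest Cxcl10 levels of the exposed D0 rats, had the 3 lowest Ackr3 levels. This order was picked out after the values were seen and was not tested. The log2 FC of Ackr3 was -0.47 on D0 (limma adjusted p = 0.153) and -0.11 on D28 (limma adjusted p = 0.879). Of 5 proteases that shed or trim these chemokines, Dpp4, Adam10, Adam17, Mmp9 and Mmp12, none was called on either day.

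Upstream of the chemokines, 0 of 13 interferon ligands and related cytokines tested, 0 of 11 receptors for them and 0 of 12 genes of JAK-STAT and IRF signalling were called on either day. Ifng had a log2 FC of 0.47 on D0 (limma adjusted p = 0.913), with 4 of 5 exposed and 6 of 6 control arrays not well above background. Il12a was well above background on no array, and Ifnb1, Ifna2, Ifna5 and Il12b on at most 2 arrays of any group. For such dim genes the lack of a call says little. Ebi3, of the same list, had a limma adjusted p of 0.0235 on D28 at a log2 FC of 0.56, below the FC limit. Of 7 inhibitors of interferon signalling, 1 was called. Usp18, which removes Isg15 from proteins and restrains the type I receptor, was the gene, and it was also the called gene among the 20 type I targets. On D28 it was higher in exposed than in control rats by a log2 FC of 0.61 (limma adjusted p = 0.0443, standard error 0.15), with exposed rats at 8.81 to 9.40 and controls at 8.11 to 8.70. On D0 its log2 FC was 0.38 (limma adjusted p = 0.279). The exposed mean was 9.26 on D0 and 9.06 on D28, and the control mean was 8.88 and 8.45.

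Among the 19 interferon-gamma targets, 0 were called on either day, with a median log2 FC of 0.04 on D0 and 0.05 on D28. Among the 20 type I targets, 0 were called on D0 and 1 on D28, with medians of 0.09 and 0.15. Of their log2 FC, 14 and 15 of 20 were above 0, where 49.9% and 48.8% of all genes were. Of the NF-kB and TNF genes, 1 of 9 was called, on D0. Tnf, the cytokine that activates NF-kB, rose by a log2 FC of 1.06 (limma adjusted p = 0.00888, standard error 0.22), with levels of 7.74 to 8.58 in exposed and 6.61 to 7.70 in control rats, and exposed rat 4 had the lowest Tnf level of the exposed D0 rats. Of 10 other CXC ligands, 1 was called on D0, Cxcl6, whose signal was well above background in 0 of 6 D0 controls, and 3 without exposed D0 rat 4, Cxcl1, Cxcl2 and Cxcl6, which attract neutrophils through Cxcr2. None of these 10 ligands was highest in that rat, where 5.9% of all genes tested were.

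Markers of macrophages, a known source of these chemokines, differed between exposed and control rats on D0. Of 12 markers, 2 were called higher, the complement gene C1qb (log2 FC 0.65, limma adjusted p = 0.00781) and the sialic acid receptor Siglec1 (log2 FC 0.89, limma adjusted p = 0.00262). Over all genes, 1.78% were called on D0. Without exposed D0 rat 4, C1qb was not called, and the 2 called markers were Siglec1 and Cd68. The median log2 FC was 0.49 on D0 and 0.32 on D28, and the list mean was 9.24 to 9.75 in exposed and 8.82 to 9.09 in control D0 rats, without overlap. How often list means lack overlap was not determined, here or for the endothelium markers below. Clec9a, a marker of cross-presenting dendritic cells, was called higher on D0 among 7 dendritic cell markers (log2 FC 1.00, limma adjusted p = 0.0243), but not without exposed D0 rat 4. The 20 T and NK cell, 7 B cell, 9 neutrophil, 10 lung epithelium and 6 endothelium markers held 0 called genes on either day, and without exposed D0 rat 4 the epithelial gene Scgb3a2 was called higher on D0. All 6 endothelium markers, of a further cell type that can make these chemokines, had log2 FC below 0 on both days, with medians of -0.16 and -0.33. Their mean was 12.55 to 12.867 in exposed and 12.87 to 13.07 in control D0 rats, without overlap by a narrow margin, and 12.65 to 13.02 and 12.92 to 13.25 on D28, with overlap. The muscle marker Myl7 fell on both days, by 0.60 on D0 and 0.63 on D28 on the log2 scale. Of 12 clock genes 3 were called on D0 and 7 on D28, among them Nr1d1, Nr1d2, Cry1 and Dbp. The part of cell makeup and of clock phase in the chemokine levels was not tested.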

How the data were processed

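RNA of the accessory lobe of 23 rats was measured on single-colour arrays. The authors deposited spot intensities of each array and a table of quantile-normalized intensities of all arrays. The processed signal used here had been corrected for background on each array by Agilent Feature Extraction, without scaling across arrays. The labels give its version as 11.0.1.1, and 1 file header, that of control D28 rat 4, as 12.0.1.1. No deposited value was on a log2 scale; log2 was taken here. The 75th percentile of the processed signal was 1382.9 to 3470.1, and 69.5 to 77.9% of spots were well above background. The lowest share was that of exposed D0 rat 4. The number of arrays limits the precision.

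Probes had to exceed the 95th percentile of the 308 negative controls on 5 or more arrays; the 40421 that did, 32418 of them named, were quantile normalized and averaged per gene, which gave 23032 genes after 29 with missing values were dropped. Groups followed the labels. One limma (version 3.58.1, R 4.3.3) model with a mean per group and no batch term, since the study does not name its batch terms, gave contrasts on each day, their difference and the contrasts between days, with 19 residual degrees of freedom. Simulated data were used to test the fit. Pairs of members were tested with 100000 permutations within groups, two-sided. Promoter sequences were matched by symbol for 4 of 4 members. Figures were drawn with matplotlib 3.10.9.

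Members and gene lists were chosen with earlier results of these data known. Named were the members, their receptors, Ifng and called genes of the other lists (at most 4 with the lowest p per list). The 3 genes most like each member were also named. Genes named for 1 animal were chosen after its values were seen. Ifna2, Ifna5, Ifnb1, Il12a, Il12b and Ebi3 were named outside this rule, for a low signal or for an adjusted p below the threshold. 1 other gene of the rule is not reported here. Alternatives were 75th percentile scaling, normexp, the median signal or the authors' table, other filters, the brightest probe, the arrays of 1 day, a variance trend, array weights, slide and replicate blocks, no FC limit and leaving out each array.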

Additional observations from a re-analysis of the deposited data

Results flagged for a closer look

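Of 56 combinations of a group with a chemokine, a receptor or a list mean, 9 held a rat whose distance from its nearest neighbour took up most of the range of its group. Chance alone gives this in about 1 of 20 groups, and no cause was tested. In exposed D0 rat 4, Cxcl9 was high at 11.58 (other exposed D0 rats 9.18 to 9.66), Cxcl16 at 13.4 (12.81 to 12.93), Cxcr3 at 7.78 (6.45 to 6.84) and the mean of the interferon-gamma targets at 10.34 (9.03 to 9.23). In exposed D28 rat 4, Cxcl9 was low at 8.87 (other exposed D28 rats 9.56 to 9.77), and the mean of the type I interferon targets was high at 9.67 (9.08 to 9.28). In control D0 rat 5, Cxcl11 was high at 6.22 (other D0 controls 4.28 to 4.96). The mean of the T and NK cell markers was high in control D0 rat 1, at 9.80 (9.15 to 9.28), and in exposed D28 rat 2, at 9.75 (8.93 to 9.05). In neither of these last rats was a chemokine set apart by the same measure.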

How the results depend on the processing

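No member was called under any alternative or without any single array. For Cxcl16 on D0 the limma adjusted p reached 0.0341 with array quality weights, at a log2 FC of 0.26, below the FC limit. Over alternatives that kept all arrays, the log2 FC on D0 ranged from 0.77 to 1.1 for Cxcl10, from 0.65 to 1.47 for Cxcl11, from 0.26 to 0.33 for Cxcl16 and from 0.01 to 0.29 for Cxcl9. Signs turned for small values that were not called. With array quality weights the Cxcl9 difference between days was 0.14 in place of -0.17. With the slide as a block the Cxcl11 difference between control days was -0.016 in place of 0.09. Leaving out 1 array at a time gave ranges of -0.21 to 0.39 for Cxcl9 on D0 (lowest without exposed rat 4), -0.070 to 0.17 for Cxcl9 on D28, -0.34 to 0.26 for the Cxcl9 difference between days, -0.55 to 0.052 for Cxcl9 between exposed days, -0.38 to 0.38 for the Cxcl10 difference between days, -0.19 to 0.36 for Cxcl11 between control days and -0.89 to 0.0070 for Cxcl11 between exposed days. The number of genes called was 411 on D0, 225 with normexp and 658 with no FC limit. On D28 it was 174, 97 with normexp, 42 with the arrays of that day alone, 303 with no FC limit and 111 to 203 without 1 array, lowest without exposed D28 rat 1. The cause was not tested.

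Rats of equal number within a day had correlations of their deviations from -0.22 to 0.46, over 0.1 in 3 of 11 pairs. Rats of unequal number were not compared in this way, so the values cannot decide whether the numbers pair the rats. The main fit took them as unpaired. With the replicate number as a block, 356 genes were called on D0 and 138 on D28, and the log2 FC of Cxcl10 and Cxcl11 on D0 were 0.97 and 1.38.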

Other observations

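Exposed D28 rat 4 was also set apart by CXC ligands that attract neutrophils. Cxcl1, Cxcl2, Cxcl3 and Cxcl6, together with the mucosal chemokine Cxcl17, were highest in it among the 12 D28 rats, which makes 5 of 10 other CXC ligands against 9.82% of all genes tested. Of 9 neutrophil markers, S100a8 and S100a9 were highest in it among D28 rats and Cxcr1 was lowest, and the mean of these markers, 7.91, lay within the 6.99 to 8.18 of D28 controls. In exposed D0 rat 4, 0 of these 10 ligands were the highest of 23 rats, against 5.9% of all genes tested, a share at which 0 of 10 is not unusual. Their median level was 0.61 below the median of the other rats on the log2 scale. Of 12 genes of JAK-STAT and IRF signalling, 7 were highest in exposed D0 rat 4, among them Stat2, Irf1, Irf8 and Irf9. These genes were named after their values in both animals were seen.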
